A study of Mus musculus with 2 samples.

Results

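The genes described here are the chemokines and chemokine receptors, taken as every gene in the deposited tables whose symbol begins with Ccl, Cxcl, Cx3cl, Xcl, Ccr, Cxcr or Cx3cr and goes on with a number and at most 1 letter, with 2 symbols left out. This gave 55 of the 25810 genes that carry a symbol, 38 ligands and 17 receptors. RNA was sequenced from mammary epithelial cells (MECs) of the inguinal glands of mice at lactation day 3, in 1 WT library and 1 Igfbp7-/- library. The Igfbp7-/- mice lack exon 1 of Igfbp7, which encodes a secreted protein that binds insulin-like growth factors, in every tissue, because loxP-flanked sequence was deleted with Cre recombinase in embryonic stem cells. The labels give a C57BL/6 background for both libraries and the methods name CD1 mice. Neither source gives the age of the mice, how many animals went into a library, or any treatment. Before RNA extraction the cells of both genotypes were depleted of lineage-positive cells with antibodies to CD45, Ter119 and CD31 (CD35 in the labels).

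Chemokines are small secreted or membrane-bound proteins that guide migrating cells, mostly leukocytes, along a gradient. They are named by the spacing of their first cysteines (CC, CXC, CX3C and XC) and act through receptors with 7 membrane-spanning helices that couple to inhibitory G proteins, while atypical receptors take up ligand without this signal. Many ligand genes lie in clusters and are induced by tumour necrosis factor, interleukin 1, Toll-like receptor ligands or interferons, through transcription factors such as NF-kB and the interferon regulatory factors. In the mammary gland, epithelial, stromal and immune cells can all make chemokines, which recruit macrophages, neutrophils and lymphocytes over the cycle of pregnancy, lactation and involution.

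The libraries held 34327854 mapped reads in WT and 35016847 in Igfbp7-/-, of which 82.3% and 72.3% lay on listed genes. The deposited count of Igfbp7 was 5224 reads in WT and 37 in Igfbp7-/-. Markers of the lineages that the depletion targets were present in both libraries, with 43.5 and 18.1 RPM (reads per 1000000 mapped reads) of Ptprc, which encodes CD45, 323 and 88.9 RPM of the endothelial gene Pecam1, which encodes CD31, and 669 and 697 RPM of the haemoglobin gene Hbb-b1, in WT and Igfbp7-/-, respectively. The paper checked the depleted cells by flow cytometry for the lineage proteins and deemed the remaining contamination insignificant. These RNA levels do not give the share of such cells. Levels below are RPM, with the WT value first. The ratio is that of Igfbp7-/- to WT after adding 0.1 RPM to both values, and a gene was called higher or lower at a ratio of 1.5 in either direction if it reached 1 RPM in either library. The intervals are 95% exact (Clopper-Pearson) intervals on read pairs without the added 0.1 RPM. They cover counting error only, since each genotype had no replicate. Pairs amplified by PCR are not independent molecules, so the intervals may be too narrow even for counting error. No difference between the genotypes could be tested.

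Most chemokine and receptor transcripts were less abundant in the Igfbp7-/- library. Of the 55 genes, 40 reached 1 RPM in either library, and of these 24 were lower in Igfbp7-/- and 7 were higher, while 9 stayed within 1.5-fold. Among all 14026 genes that reached 1 RPM, 23.0% were lower and 21.4% were higher. The median log2 ratio of the 40 genes was -1.21, beside 0.03 for all genes (quartiles -0.52 and 0.51). Together the 55 genes held 0.580% of WT reads and 0.235% of Igfbp7-/- reads, 5801 and 2349 RPM, which is 2.47-fold less. When the values were scaled to the reads on listed genes, all ratios shifted up by about the same amount, and the share of all genes that were higher became 30.3% and lower 18.4%, while 8 of the 40 genes were higher and 24 lower. In bulk RNA, fewer cells of a type and less RNA per cell cannot be told apart.

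**Figure D1:**
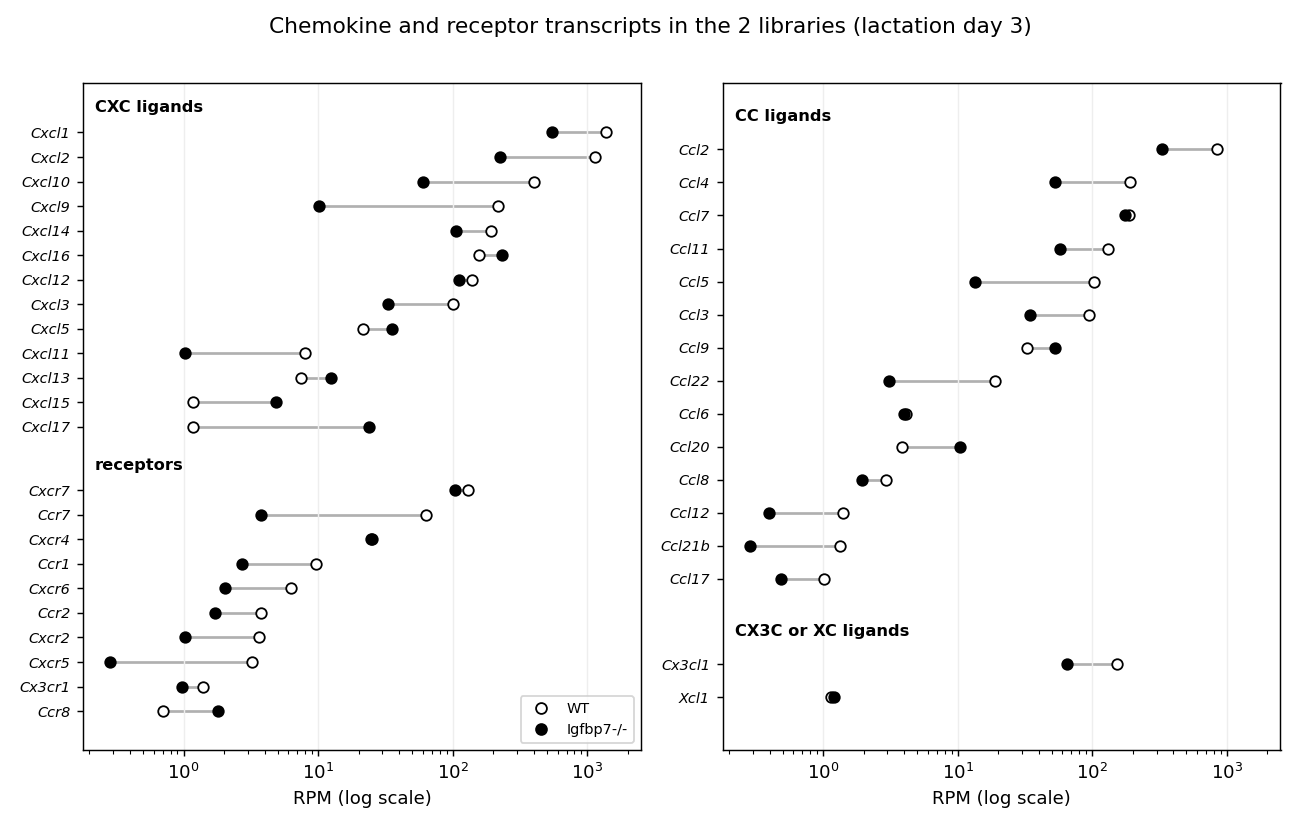
RPM of 39 chemokine and receptor genes that reached 1 RPM in either library, on a log axis, with 1 open point for the WT library, 1 filled point for the Igfbp7-/- library and a line joining them. No error bars are drawn, since each genotype had 1 library. The filled point lies to the left of the open point by at least 1.5-fold for 23 genes and to the right for 7, among them Cxcl17 (1.17 and 23.7 RPM).

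Lower genes outnumbered higher ones among ligands and receptors alike. CXC ligands had 7 lower and 4 higher genes of 13, and CC ligands 9 lower and 2 higher of the 14 that reached 1 RPM. Receptors had 7 lower and 1 higher gene of 11. Of the 24 that reached 10 RPM in either library, 14 were lower and 5 higher, beside 20.4% and 20.7% of all genes at that level. The interval of the ratio excluded 1 for 23 of the 24 lower genes, all but Ccl17, and for all 7 higher genes. It also excluded 1 for Ccl7, Cxcl12, Cxcl16 and Cxcr7, which stayed within 1.5-fold. The share of all genes whose interval excluded 1 was not counted. How much animals of 1 genotype differ from each other was not measured.

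**Figure D2:**
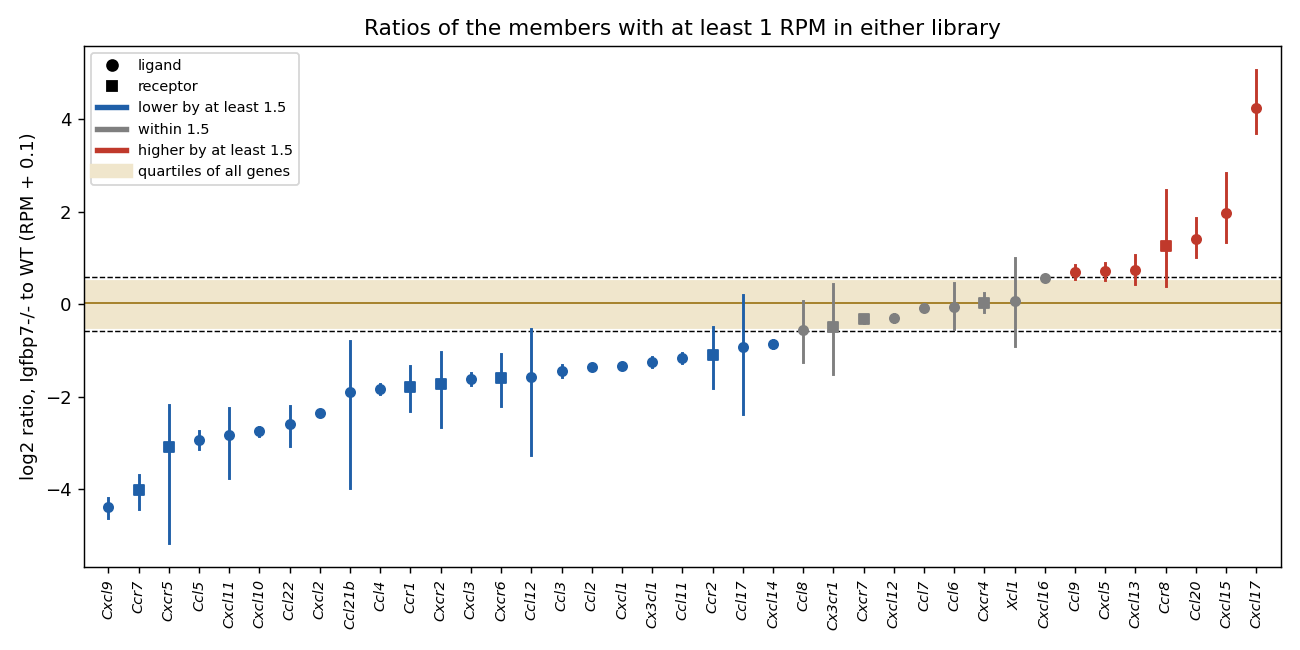
The log2 ratio of Igfbp7-/- to WT for the same 39 genes, in order, with round points for ligands, squares for receptors and vertical bars for the 95% counting interval, which leaves out differences between animals. Dashed lines mark 1.5-fold, the solid line and the shaded band mark the median (0.03) and the quartiles of all 14026 genes, and the genes run from Cxcl9 at -4.39 to Cxcl17 at 4.23.

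Ligands of CXCR2, the receptor by which neutrophils follow CXC chemokines with a Glu-Leu-Arg motif, included Cxcl1, which had the highest RPKM (RPM per kilobase of gene length) of all the chemokines in both libraries. The 5 genes of this list had summed levels of 2650 and 845 RPM, with 3 lower and 2 higher. Cxcl1 had 1384 and 547 RPM (log2 ratio -1.34, interval -1.37 to -1.30). Cxcl2 had 1142 and 225 RPM and was 5.08-fold lower (-2.34, -2.39 to -2.30), and Cxcl3 had 101 and 32.8 RPM (-1.62, -1.76 to -1.48). These 3 paralogs, which encode the mouse relatives of human GRO chemokines, thus differed in how much lower they were. Cxcl1 RPKM was 1.36 times Cxcl2 RPKM in WT and 2.74 times in Igfbp7-/-. The remaining genes of the list were higher in Igfbp7-/-. Cxcl5, which epithelial cells make in several organs, had 21.6 and 35.2 RPM (0.71, 0.52 to 0.90), a call that was lost when the 20 most abundant genes were left out of the library totals (0.57). Cxcl15, first described as a lung epithelial chemokine, had 1.17 and 4.85 RPM, from 40 and 170 reads (1.97, 1.34 to 2.84).

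The 250 bases upstream of the gene start are shown for 4 CXCR2 ligand genes, because lower and higher genes of the list lie side by side on chromosome 5. Cxcl5 had no window, so that Cxcl15 was the only higher gene of the list that could be shown. The sequences are from RefSeq (mouse build GRCm38.p6), 5′ to 3′ on the strand of the gene and ending at the base before the start, with matches to the letters GGNNTTTCC, a core of the NF-kB motif, in capitals (either strand).
Cxcl1, chr5:90890995-90891244, plus strand: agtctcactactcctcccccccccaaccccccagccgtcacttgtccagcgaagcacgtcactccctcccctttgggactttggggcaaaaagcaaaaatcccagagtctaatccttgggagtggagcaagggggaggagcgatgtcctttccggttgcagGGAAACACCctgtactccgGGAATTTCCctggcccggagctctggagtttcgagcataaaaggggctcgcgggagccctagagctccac
Cxcl2, chr5:90903649-90903898, plus strand: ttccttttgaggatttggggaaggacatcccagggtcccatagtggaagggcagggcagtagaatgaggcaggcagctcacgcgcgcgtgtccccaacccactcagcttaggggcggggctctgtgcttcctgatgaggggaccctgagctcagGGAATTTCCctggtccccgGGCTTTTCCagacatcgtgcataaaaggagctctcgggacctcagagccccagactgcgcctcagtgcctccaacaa
Cxcl3, chr5:90785851-90786100, plus strand: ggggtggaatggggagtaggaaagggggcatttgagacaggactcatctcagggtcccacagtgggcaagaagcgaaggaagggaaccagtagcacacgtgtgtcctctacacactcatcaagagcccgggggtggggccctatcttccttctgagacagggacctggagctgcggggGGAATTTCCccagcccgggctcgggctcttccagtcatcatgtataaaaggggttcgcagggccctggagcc
Cxcl15, chr5:90794284-90794533, plus strand: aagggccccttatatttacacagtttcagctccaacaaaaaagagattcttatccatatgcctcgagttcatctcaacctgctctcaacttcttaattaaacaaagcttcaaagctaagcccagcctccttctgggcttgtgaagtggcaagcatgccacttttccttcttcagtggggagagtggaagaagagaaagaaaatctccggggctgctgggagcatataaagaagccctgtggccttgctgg
Cxcl1 held 2 such matches, beginning 89 and 70 bases upstream of the start, Cxcl2 held 2, at 96 and 77 bases, and Cxcl3 held 1, at 72 bases. Cxcl15, which was higher in Igfbp7-/-, held no match in this window. Only 4.93% of all such windows held the core, so its absence from 1 gene says nothing about the direction of the ratio. A match of letters describes the sequence and does not show that a factor binds there.

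Ligands of CXCR3, which are induced by interferon gamma and attract activated T cells and natural killer cells, had a median log2 ratio of -2.84, the lowest of the ligand lists grouped by receptor. Their summed level was 628 and 71.1 RPM, 8.83-fold lower, and all 3 genes were called lower. Cxcl9 had 216 and 10.2 RPM, from 7411 and 356 reads, which was 21.0-fold lower (-4.39, -4.63 to -4.19). Cxcl10 had 404 and 59.9 RPM (-2.75, -2.85 to -2.66), and Cxcl11 had 7.95 and 1.03 RPM (-2.84, -3.75 to -2.24). Cxcl9 RPKM was 0.196 times Cxcl10 RPKM in WT and 0.0621 times in Igfbp7-/-, so the 2 genes were unequally lower. Exons of Art3 overlap Cxcl10 on the opposite strand, and without the strand setting of the counting the reads of the pair cannot be told apart. Art3 had 6.90 and 0.86 RPM. Exons of Gm2673 overlap Cxcl11 in the same way. Cxcr3, the receptor, had 22 and 18 reads and stayed below 1 RPM in both libraries.

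The upstream windows of Cxcl9 and Cxcl10 are shown in the same way, because these genes were far lower together. Capitals mark matches to GGNNTTTCC and to GAAANNGAA, a core of the interferon-stimulated response element, on either strand.
Cxcl9, chr5:92328080-92328329, minus strand: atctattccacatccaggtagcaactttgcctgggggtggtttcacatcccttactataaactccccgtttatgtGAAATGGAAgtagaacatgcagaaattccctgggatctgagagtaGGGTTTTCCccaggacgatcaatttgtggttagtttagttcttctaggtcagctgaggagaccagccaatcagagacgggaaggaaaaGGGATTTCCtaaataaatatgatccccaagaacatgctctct
Cxcl10, chr5:92348890-92349139, minus strand: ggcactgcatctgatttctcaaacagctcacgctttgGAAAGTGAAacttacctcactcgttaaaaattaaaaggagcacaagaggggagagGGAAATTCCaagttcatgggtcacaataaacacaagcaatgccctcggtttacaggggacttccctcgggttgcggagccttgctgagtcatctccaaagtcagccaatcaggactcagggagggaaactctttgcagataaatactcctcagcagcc
Cxcl9 held 2 matches to the NF-kB core, beginning 130 and 42 bases upstream, and 1 to the interferon core at 175 bases. Cxcl10 held 1 of each, at 158 and 213 bases. No matches of the 2 motifs overlapped in either gene.

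The other 5 CXC ligands went in both directions. Cxcl17, a chemokine of mucosal epithelia, had the highest ratio of all 40 genes, with 1.17 and 23.7 RPM, from 40 and 830 reads, 18.8-fold higher (4.23, 3.70 to 5.07). Cxcl13, which attracts B cells, had 7.46 and 12.5 RPM (0.74, 0.42 to 1.07). Cxcl16, made as a membrane-bound protein that is also a scavenger receptor, had 155 and 230 RPM, just within 1.5-fold (0.57, 0.50 to 0.64), and was past it when scaled to the reads on listed genes (0.76). The exons of Zmynd15, which overlap Cxcl16 on the opposite strand, had 20.4 and 39.1 RPM. Cxcl14, which many epithelia make without stimulation, was lower, with 192 and 106 RPM (-0.86, -0.94 to -0.78). Cxcl12, the stromal ligand of CXCR4, stayed within 1.5-fold at 139 and 112 RPM (-0.31, -0.40 to -0.22).

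Among CC ligands, those of CCR2, which draw monocytes, were called lower for 2 of 4 genes. Ccl2 had 847 and 329 RPM (-1.36, -1.41 to -1.32) and was the third of these genes by RPKM in WT and the second in Igfbp7-/-. Ccl7 lies next to Ccl2 and had 186 and 176 RPM, within 1.5-fold (-0.08, -0.16 to -0.01). The RPKM of Ccl2 was accordingly 5.15 times that of Ccl7 in WT and 2.12 times in Igfbp7-/-. Ccl12 was lower on few reads, 48 and 14 (1.40 and 0.40 RPM), and Ccl8, with 2.91 and 1.94 RPM, stayed within 1.5-fold.

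The ligand genes Ccl3, Ccl4, Ccl5, Ccl6 and Ccl9, whose products attract macrophages and T cells, had a summed level of 424 and 158 RPM. Ccl5, which T cells make late after activation, was 7.61-fold lower, with 103 and 13.5 RPM (-2.93, -3.14 to -2.74). Ccl4 had 189 and 53.0 RPM (-1.83, -1.94 to -1.73), and its neighbour Ccl3 had 94.5 and 34.7 RPM (-1.44, -1.58 to -1.31). Ccl9, made mainly by macrophages and other myeloid cells, was higher in Igfbp7-/-, at 32.6 and 52.7 RPM (0.69, 0.54 to 0.85), though not when the 20 most abundant genes were left out of the totals (0.55). Ccl6 was almost equal, with 142 and 139 reads. The list thus held 3 lower genes, 1 higher and 1 within 1.5-fold.

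The remaining CC ligands are grouped here by their receptors. Ccl11, the eotaxin that attracts eosinophils through CCR3, had 130 and 57.7 RPM (-1.17, -1.28 to -1.07). The CCR4 ligands, which dendritic cells and macrophages make, were both lower, Ccl22 with 19.1 and 3.08 RPM (-2.59, -3.07 to -2.21) and Ccl17 with 1.02 and 0.49 RPM (-0.94, -2.37 to 0.20). The interval of Ccl17, from 35 and 17 reads, included 1, and its call was lost with a pseudocount of 1 RPM (-0.44). Ccl20, an epithelial ligand of CCR6, was higher in Igfbp7-/-, with 3.85 and 10.4 RPM (1.41, 1.02 to 1.86). Of the CCR7 ligands only Ccl21b reached 1 RPM, with 46 and 10 reads (1.34 and 0.29 RPM; -1.90, -3.98 to -0.80). Ccl21a, Ccl21b and Ccl21c are near-identical copies, as are Ccl27a and Ccl27b, and how reads that fit several copies were counted is not given in the sources used here, so that these values are uncertain. Cx3cl1, the membrane-bound chemokine fractalkine, had 154 and 64.5 RPM (-1.25, -1.36 to -1.15), whereas Xcl1, a lymphocyte product, had 39 and 42 reads.

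The 17 receptor genes had a summed level of 255 and 145 RPM, which rested largely on a pair of genes that stayed within 1.5-fold. Cxcr7 (also named Ackr3), an atypical receptor that takes up CXCL12, had 129 and 103 RPM (-0.32, -0.41 to -0.23). In Igfbp7-/- this 1 gene held most of the receptor RPM. Cxcr4, the signalling receptor of the same ligand, had 24.5 and 25.1 RPM (0.03, -0.16 to 0.23). The transcripts of CXCL12 and of both its receptors were thus all within 1.5-fold.

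Of the 9 other receptors past 1 RPM, all of them known from leukocytes, 7 were lower, 1 was higher and 1 was within 1.5-fold. Ccr7, which guides mature dendritic cells and naive T cells to lymph nodes, had 2156 reads in WT and 132 in Igfbp7-/-, 62.8 and 3.77 RPM (-4.02, -4.44 to -3.70), and was the only receptor called lower that exceeded 10 RPM. Cxcr5, the receptor of CXCL13 on B cells and follicular T cells, had 110 and 10 reads, 3.20 and 0.29 RPM (-3.10, -5.17 to -2.18). The monocyte and macrophage receptor genes Ccr1, at 9.61 and 2.71 RPM (-1.79, -2.31 to -1.34), and Ccr2, at 3.79 and 1.71 RPM (-1.10, -1.82 to -0.50), were lower by less. Cxcr6, the T cell receptor for CXCL16, had 6.32 and 2.03 RPM (-1.59, -2.21 to -1.07), while the gene of its ligand stayed within 1.5-fold. Cxcr2 had 3.61 and 1.03 RPM (-1.72, -2.66 to -1.04). Ccr8, found on regulatory and skin-homing T cells, was higher on few reads, 24 and 63, 0.70 and 1.80 RPM (1.25, 0.39 to 2.48). Cx3cr1, with 48 and 34 reads, stayed within 1.5-fold (-0.48, -1.51 to 0.43).

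The remaining 15 genes stayed below 1 RPM in both libraries and were not called. They were 9 CC ligands, 6 receptors and no CXC ligand, with 0 to 26 reads in WT and 0 to 18 in Igfbp7-/-. Ccl19, Ccl21c and Ccl26 had no read in either library. For scale, 3 reads would be 0.0874 RPM in WT and 0.0857 RPM in Igfbp7-/-. Because reads of the same pair are not independent, a count of 0 does not exclude a somewhat higher level.

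On the RPKM scale, which allows genes of different length to be compared, a few ligands dominated and their order shifted. In WT the order was Cxcl1 (1436 RPKM), Cxcl2 (1055), Ccl2 (1051), Cxcl10 (380), Ccl4 (281) and Ccl7 (204). In Igfbp7-/- it was Cxcl1 (568 RPKM), Ccl2 (408), Cxcl2 (208), Ccl7 (192), Cxcl16 (94.1) and Ccl4 (78.7). Cxcl1 ranked 21 among all 25127 genes with an RPKM in WT and 50 in Igfbp7-/-, and Cxcl9 went from rank 594 to rank 8068. In RPM, the top 3 genes held 58.2% of all chemokine and receptor reads in WT (Cxcl1, Cxcl2 and Ccl2) and 47.1% in Igfbp7-/- (Cxcl1, Ccl2 and Cxcl16).

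Genes of the same cluster did not always go together. In the NCBIM37 build (mm9), 7 groups of at least 3 genes were found with no gap over 250 kb. Cxcl9, Cxcl10 and Cxcl11 (chromosome 5, 92750357 to 92794511) were all lower, as were Ccl22, Cx3cl1 and Ccl17 (chromosome 8, 97269490 to 97335935). In the other chromosome 5 cluster (91188325 to 91334935, 147 kb), Cxcl3, Cxcl1 and Cxcl2 were lower, and Cxcl5 and Cxcl15, on either side of Cxcl3, were higher. On chromosome 11, Ccl2, Ccl11 and Ccl12 were lower and Ccl7 and Ccl8 within 1.5-fold in one cluster (81849073 to 82119192), and in another (83339280 to 83478185) Ccl5, Ccl3 and Ccl4 were lower and Ccl9, between Ccl5 and Ccl6, was higher. In the receptor gene cluster of chromosome 9, Cxcr6, Ccr1 and Ccr2 were lower, and Ccr9 and Ccr3 stayed below 1 RPM. The highest and the lowest single genes outside clusters were Cxcl17 (chromosome 7, 26185072 to 26197905) and Ccr7 (chromosome 11, 99005510 to 99016391), respectively.

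**Figure D3:**
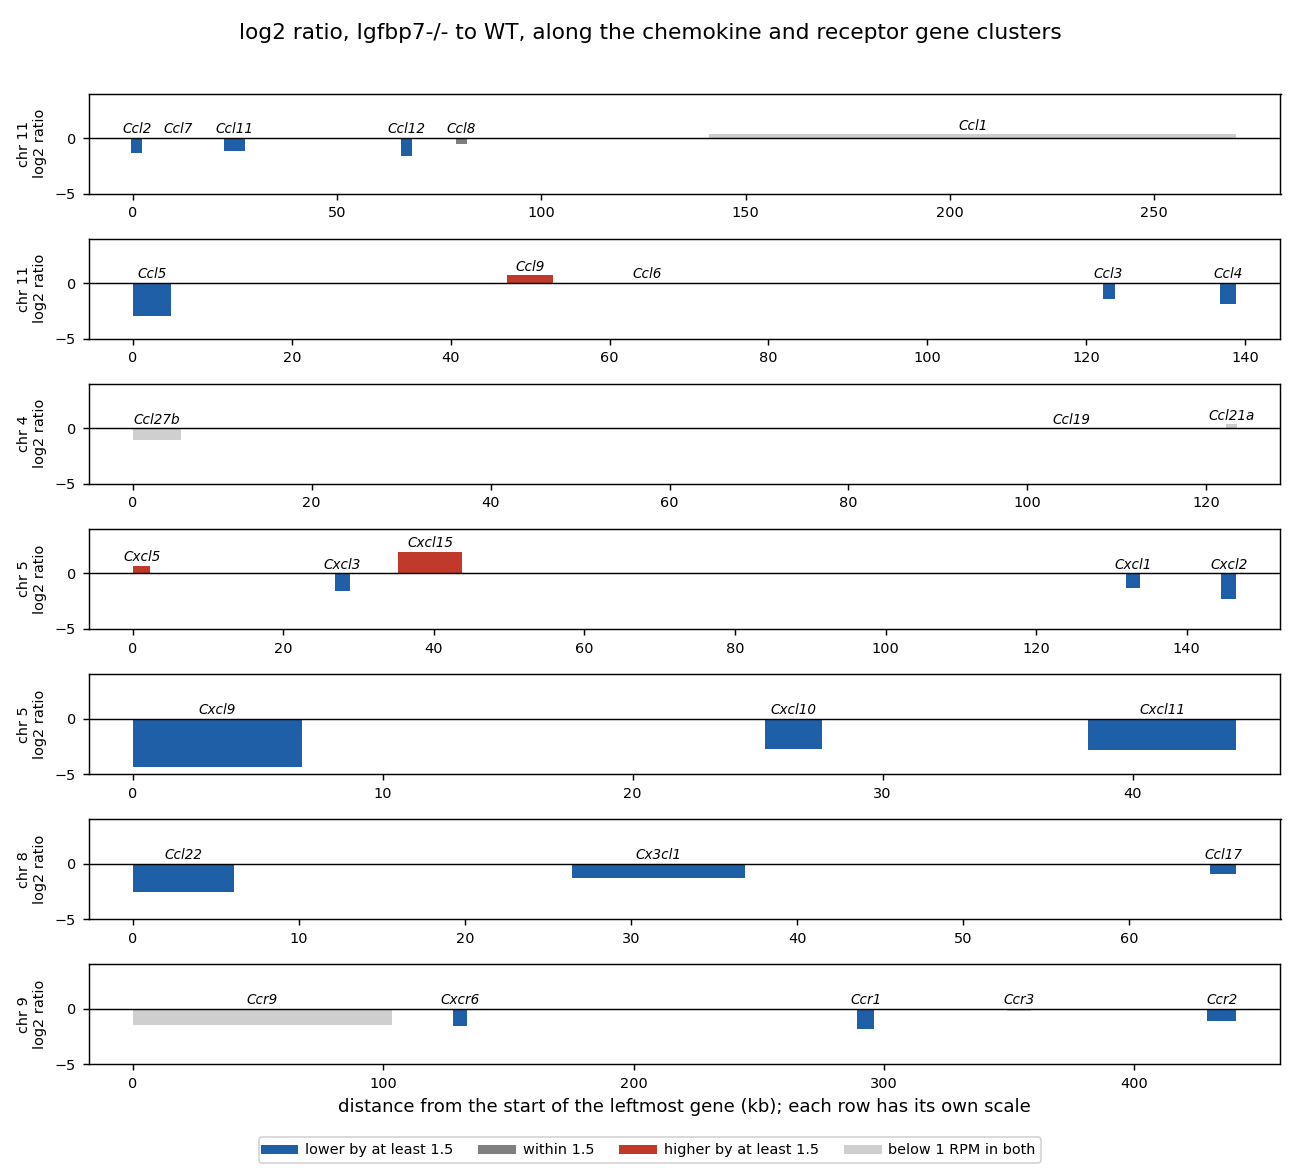
Each row is 1 of the 7 gene clusters, with the distance from the start of its leftmost gene in kb and bars spanning the annotated extent of each gene as GENCODE gives it (short genes are widened to be visible, and Ccl1 and Ccr9 have long annotated extents), whose height is the log2 ratio of Igfbp7-/- to WT in the single library of each genotype. Blue bars are lower and red bars higher by at least 1.5-fold, dark grey bars are within it and light grey bars are below 1 RPM in both libraries; the cluster with Cxcl5 and Cxcl15 (0.71 and 1.97) and Cxcl1 to Cxcl3 holds both colours.

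Over all genes with a RefSeq window, 40 of the 55 chemokine and receptor genes could be searched, together with 32851 windows of the same 250 bases. The NF-kB core was found in 4.93% of all windows and in 8 of the 40 genes (20%). A gene counted if any of its windows held a match, so the share of genes and the share of windows are in different units, here and below. By call, 5 of 16 lower genes held it (Cxcl1, Cxcl2, Cxcl3, Cxcl9 and Cxcl10), 2 of 5 higher genes (Ccl9 and Ccl20), none of the 7 within 1.5-fold and 1 of the 12 below 1 RPM (Ccr3). The interferon core was found in 7.13% of all windows and also in 8 of the 40. It was held by 5 of 16 lower genes (Cxcl9, Cxcl10, Cxcl14, Ccl3 and Ccr2). None of the 5 higher genes or the 7 within 1.5-fold held it. Among the 12 below 1 RPM, 3 did (Ccl1, Ccl19 and Cxcr1). Since few windows hold this core, its absence from 5 genes says nothing about the direction of the ratio. Genes with the NF-kB core were thus found on both sides of the ratio. Genes that were not searched included Ccl2, Ccl4, Ccl5, Ccl7, Ccl11, Ccr7, Cxcl5, Cxcl11, Cxcl16, Cxcl17 and Cxcr5.

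Genes that induce chemokines were given by a list of 28 cytokines and receptors, of which 24 reached 1 RPM. Of these, 13 were lower in Igfbp7-/- and 3 were higher, with a median log2 ratio of -0.67. Among all genes 23.0% were lower and 21.4% higher, with a median of 0.03. Il1b had 53.2 and 9.97 RPM (-2.40), Tnfsf10 had 45.9 and 9.60 RPM (-2.25) and Il6 had 260 and 55.9 RPM (-2.22). Tlr4, the lipopolysaccharide receptor, was higher, with 28.3 and 67.3 RPM (1.25), and so was the interleukin 6 family cytokine Lif, with 35.6 and 63.7 RPM (0.84). Ifng, which encodes interferon gamma, was at 1.34 and 0.69 RPM, and its receptor genes Ifngr1 and Ifngr2 stayed within 1.5-fold. Ifnb1, which encodes interferon beta, was lower, with 47.7 and 11.7 RPM (-2.02). The values of these genes are given beside those of the chemokines, and their part in the result was not tested.

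Signalling genes downstream of chemokine receptors went in both directions. Of 63 genes of this list past 1 RPM, 37 stayed within 1.5-fold, 19 were lower and 7 higher, with a median of -0.16. Lower genes with at least 10 RPM included the G protein subunit gene Gng2 (10.6 and 3.48 RPM, -1.58) and Elmo1, which acts with Dock2 on Rac (33.0 and 11.4 RPM, -1.53). The highest with at least 10 RPM in either library were Foxo3 (37.2 and 120.4 RPM, 1.69), the catalytic subunit gene Pik3cb (27.6 and 87.1 RPM, 1.66) and Vav2 (4.89 and 10.9 RPM, 1.14). Among all genes past 1 RPM, 23.0% were lower and 21.4% higher, so that most of those also stayed within 1.5-fold.

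Markers of immune cells were more often lower than higher in each list, beside 23.0% lower and 21.4% higher among all genes. Their part in the result was not tested. Dendritic and Langerhans markers were lower for all 9 genes past 1 RPM, with a summed level of 795 and 92.0 RPM, and among them Cd207 had 30.3 and 0.74 RPM. B and plasma cell markers were lower for all 5 past 1 RPM (37.8 and 3.23 RPM in sum). Ccr7 and Ccl22 are known from mature dendritic cells, and Cxcr5 from B cells. Macrophage and monocyte markers were lower for 10 of 14, with sums of 784 and 796 RPM that rested on Cd14 (470 and 677 RPM). Without Cd14 the sums were 314 and 118 RPM. T and NK cell markers were lower for 5 of 10 and higher for 1 (88.8 and 38.6 RPM), and pan leukocyte markers lower for 6 of 7 (347 and 210 RPM). Of the neutrophil markers past 1 RPM, 4 of 6 were lower. Their sum of 418 and 1749 RPM was mostly Ltf, the lactoferrin gene that the mammary epithelium also expresses, without which it was 49.1 and 37.2 RPM, and the defining marker Ly6g had 0 reads in WT and 1 in Igfbp7-/-.

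Markers of non-immune cells differed from list to list, beside 23.0% lower and 21.4% higher among all genes. Endothelial markers were lower for 9 of 10 (1555 and 498 RPM), and basal and myoepithelial markers for 7 of 8 (3586 and 1109 RPM). Fibroblast markers were lower for 4 of 9 and higher for 1 (9187 and 4724 RPM), and adipocyte markers were lower for 3 of 4 and higher for 1 (563 and 192 RPM). All 4 erythroid markers past 1 RPM stayed within 1.5-fold (1066 and 1243 RPM). Among 10 luminal and milk genes, the keratin genes Krt8 (268 and 789 RPM), Krt18 (250 and 1174 RPM) and Krt19 (105 and 292 RPM) were higher, and the milk protein genes Csn2, Csn1s1, Lalba and Wap were lower, so that the list summed to 92176 and 37102 RPM. Epcam, Cdh1 and Elf5 of the same list stayed within 1.5-fold, and the basal keratin genes Krt5 (579 and 182 RPM) and Krt14 (326 and 148 RPM) were lower. Among the ligands described above as epithelial, Cxcl5, Cxcl15, Cxcl17 and Ccl20 were higher and Cxcl14 was lower. Which cells made the other ligands was not measured, and the most abundant in WT, Cxcl1, Cxcl2 and Ccl2, were lower. A link between these ligands and the epithelial markers was not tested.

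**Figure D4:**
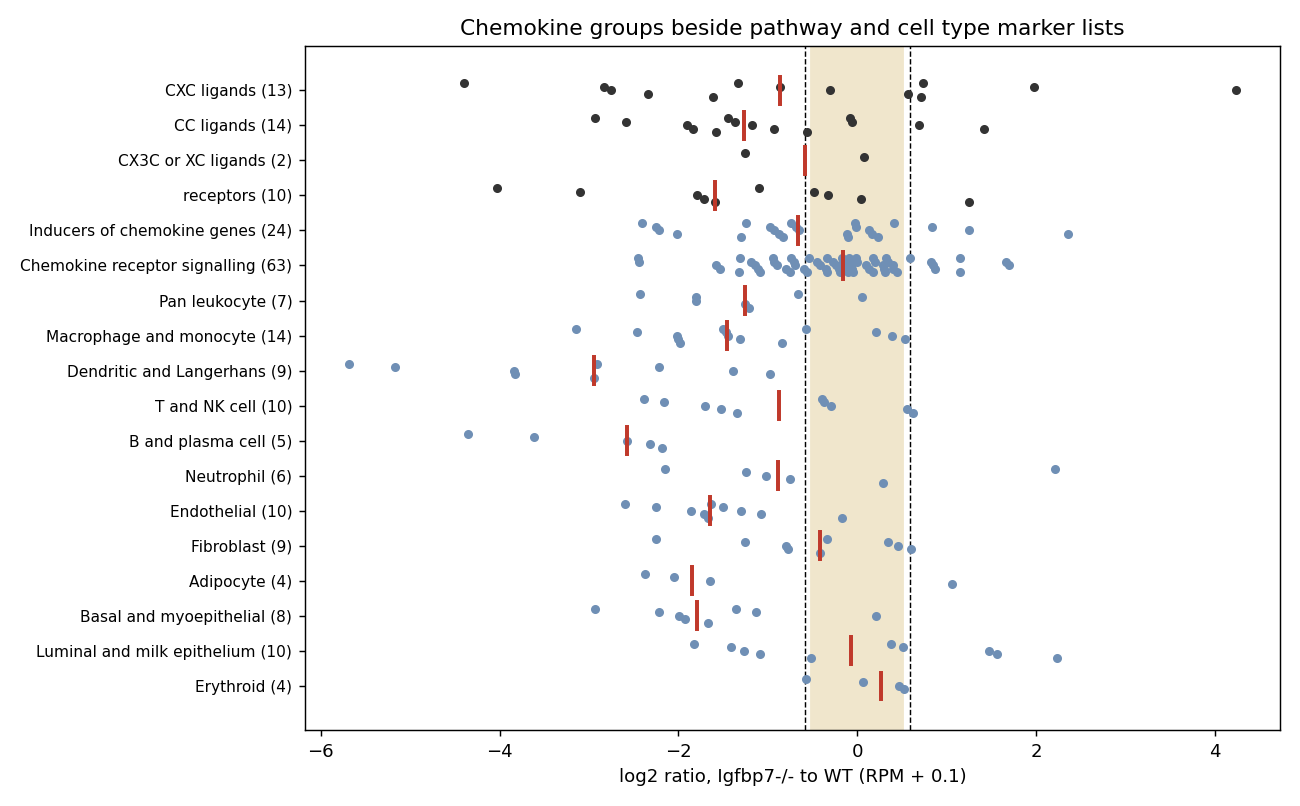
Points are the log2 ratios of Igfbp7-/- to WT of single genes past 1 RPM (number in brackets), black for the chemokine and receptor groups and blue for the other lists, with a red bar at each median, dashed lines at 1.5-fold and the quartiles of all genes shaded. The receptor median includes 1 gene that has no point. The receptor median lies at -1.59, near those of the macrophage (-1.46) and endothelial (-1.65) markers and above that of the dendritic and Langerhans markers (-2.94).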

How the data were processed

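Poly(A) RNA of lineage-depleted MECs was sequenced as paired-end reads on a SOLiD instrument, 1 library per genotype. The submitters' processing notes name Bowtie 0.12.3, SAMtools 0.1.15 and mm9, and the methods name the GeneSifter pipeline, at most 3 mismatches, removal of mitochondrial, ribosomal and small nuclear RNA, and a human reference build, although the files list mouse genes. The strand setting and the handling of reads with several matches are not given in the sources used here. For each gene the authors deposited the read count, without normalization, the RPM (the count per 1000000 mapped reads) and the RPKM (RPM per kilobase). The RPM total includes reads off the listed genes, so a larger share of these lowers every RPM, and a few very abundant genes shift all others. The 50 rows without a symbol (0.0408% and 0.0484% of reads) were left out. At this depth 1 read was 0.0291 RPM in WT and 0.0286 RPM in Igfbp7-/-.

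Ratios used the deposited RPM plus 0.1, for genes with at least 1 RPM in either library, with calls at 1.5-fold. With 1 library per genotype no test was made. Intervals used read pairs (counts divided by 2), which is an approximation, since some deposited counts were odd. Some genes are counted in totals, medians and calls but not reported here by name. The 55 genes and all lists were chosen with earlier results of these data known. Genes with at least 10 RPM, and those from 1 to 10 RPM past 1.5-fold, were named with both values, the others by count or, where few, by name. In the inducer and signalling lists the 3 highest and 3 lowest genes with at least 10 RPM were to be named where past 1.5-fold. Ifng, its receptors, Ifnb1, the overlapping genes, the named marker genes and the sums without Ltf and Cd14 were added after the values were seen. Gene positions are from GENCODE vM1 (NCBIM37) and sequences from RefSeq GRCm38.p6. Alternatives were other pseudocounts, minimums, scalings and thresholds, and RPKM. Scripts were tested on simulated data and run in Python 3.11.15 with numpy 2.4.6, pandas 2.3.3, scipy 1.17.1 and matplotlib 3.10.9.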

Additional observations from a re-analysis of the deposited data

How the results depend on the processing

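No paired analysis was possible because each genotype had 1 library, and no replicate could be left out. With a ratio of at least 2, 4 of the 40 chemokine and receptor genes were higher in Igfbp7-/- and 22 lower. Among all genes, 9.64% were higher and 13.8% lower at that ratio. A minimum of 10 RPM left 24 genes to call, of which 14 were lower and 5 higher, beside 20.4% and 20.7% of all genes. Without a minimum there were 52 genes to call, of which 29 were lower and 8 higher, beside 26.2% and 23.5% of all genes. Under the other alternatives, 5 to 8 of the 40 genes were higher and 23 to 26 lower. Where the share of all genes was taken there, it was 16.7% to 30.3% higher and 18.4% to 27.4% lower. Where a median log2 ratio was taken, it lay between -1.35 and -0.86. Scaling to the reads on listed genes moved the median of all genes from 0.03 to 0.22, and leaving the 20 most abundant genes out of the total moved it to -0.10, with 16.7% of all genes higher and 27.4% lower. Over 36 genes and 6 alternatives each, no ratio past 1.5-fold changed sign. Within 1.5-fold, Ccl7 went from -0.08 to 0.10 when scaled to the reads on listed genes, and Cxcr4 from 0.03 to -0.10 without the 20 most abundant genes. Of the 31 called genes, 28 kept their call in all 6. The exceptions were Ccl9 and Cxcl5, which fell below 1.5-fold without the 20 most abundant genes in the total (log2 ratios 0.55 and 0.57), and Ccl17 with a pseudocount of 1 RPM (-0.44), while Cxcl16 passed 1.5-fold when scaled to the reads on listed genes (0.76). Depth limited the genes with few reads, such as Ccl12, Ccl17, Ccl21b and Cxcr5, whose intervals were wide.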

Other observations

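Chemokine-binding and related genes with other names were also lower where they were called. Of 9 such genes past 1 RPM, 5 were lower in Igfbp7-/- and none was higher, with a median log2 ratio of -0.84, beside 23.0% lower and 21.4% higher among all genes. Darc, the endothelial and red cell receptor that binds many chemokines without signalling, had 41.6 and 14.9 RPM in WT and Igfbp7-/- (log2 ratio -1.47, interval -1.68 to -1.27). Ccrl2, which binds chemerin, had 83.2 and 46.3 RPM (-0.84, -0.97 to -0.72), while chemerin itself, encoded by Rarres2, had 8.97 and 6.94 RPM and stayed within 1.5-fold. Ccbp2, an atypical receptor that removes inflammatory CC ligands, had 8.62 and 12.02 RPM and Cmklr1, the signalling chemerin receptor, 9.06 and 10.7 RPM, both within 1.5-fold. Xcr1, the receptor of XCL1 on cross-presenting dendritic cells, had 1.66 and 0.31 RPM (-2.09, -3.86 to -1.01), while Xcl1 was almost equal. The genes Ccbp2, Cmklr1, Rarres2 and Xcr1 were named after their values were seen.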
